A study of Homo sapiens with 6 samples.

Results

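Polyadenylated RNA of the libraries titled THP1 A5-res (genotype given as ALKBH5 rescue) was compared with that of the libraries titled THP1 shA5 (genotype given as ALKBH5 knock-down), within replicate number 1 and within replicate number 2. These are 4 of the 6 libraries of the series, chosen by their titles. The other 2, titled THP1 shCtrl and given as wild-type, are printed as reference levels and enter the fits. All 6 come from THP1, a human acute myeloid leukaemia line of monocytic type, grown in RPMI-1640 with serum, penicillin and streptomycin. They share oligo-dT selection, random priming and PCR amplification. The labels give neither the hairpin sequences nor the construct used for the rescue, and they do not say whether a number marks a shared culture, day or batch. They also do not state separate cultures, so p-values here measure only the spread between these libraries.

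ALKBH5 is a demethylase that removes N6-methyladenosine (m6A) from RNA in the nucleus. The mark is written by a METTL3 and METTL14 complex, is also removed from some RNAs by FTO, and is read by YTH-domain proteins that affect splicing, translation and decay. A knock-down with the enzyme restored is commonly used to ask which RNA changes depend on the enzyme. In such a design a dependent transcript differs between the rescue and the knock-down in the same direction in each replicate.

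ALKBH5 (ENSG00000091542.8, chr17:18183078-18209954, plus strand, GRCh38) did not follow the labels. Its level in CPM (counts scaled to a common library total) was 12.4 and 1003 in the shA5 libraries of numbers 1 and 2, 13.6 and 968 in the A5-res libraries, and 14.6 and 1097 in the shCtrl libraries. The level was therefore set apart by replicate number and not by genotype, so each group below is called by its label only. Within number 1 the A5-res library exceeded the shA5 library by 0.13 on the log2 scale, from 312 and 217 counts, and within number 2 it was lower by 0.05, from 15733 and 19116 counts. The paired log2 fold change was 0.02 (SE 0.11, 95% interval -0.23 to 0.26, n = 2 pairs), with an edgeR adjusted p of 1. The difference between the numbers was -0.18 (SE 0.34). Of its transcripts, the coding ALKBH5-201 held 198 and 19109 counts in the shA5 libraries and 277 and 15732 in the A5-res libraries. The retained-intron transcript ALKBH5-202 held 19 and 1 counts against 35 and 1.

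Library depth ran from 14534386 to 24857373 estimated counts. Markers of monocytic THP1 cells summed to 6054 to 7144 CPM per library with none of 18 genes at 0. Markers of T and NK cells summed to 18.9 to 25.8 CPM, of B cells to 6.96 to 13.5, of epithelial cells and fibroblasts to 1.43 to 2.86, and of erythroid cells and megakaryocytes to 0.639 to 1.03. Same-numbered A5-res and shA5 libraries resembled each other more than libraries of a group did: the correlation of log2 CPM over genes was 0.989 and 0.992 within numbers 1 and 2, against 0.962 to 0.971 within groups.

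No gene passed the paired test. edgeR's quasi-likelihood test with the number as a block called 0 of 14497 genes (0%) at an adjusted p under 0.05, and 290 genes (2.0%) had an unadjusted p under 0.05. DESeq2 and limma-voom with the same block also called 0, with 75 and 331 at an unadjusted p under 0.05. Without the block the call was 0, with 43 genes (0.297%) at that unadjusted level, and the biological coefficient of variation was 27.7% in place of 10.6%. The lowest adjusted p was 0.775 in edgeR, shared by several genes. AC048338.1 was among these, at 4.40 and 5.83 CPM in the shA5 libraries and 0.782 and 0 in the A5-res libraries. It shares 97.9% of its 31-base words with other genes, and the reads of such a gene cannot be placed with certainty. The count of 0 depended on the libraries. It became 1005 without A5-res number 2, with 869 of these lower in A5-res. The other counts were 54 without A5-res number 1, 17 without shA5 number 1 and 38 without shA5 number 2, each fit assuming that the lone remaining library varied like the other groups. Without either shCtrl library it stayed 0.

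**Figure D1:**
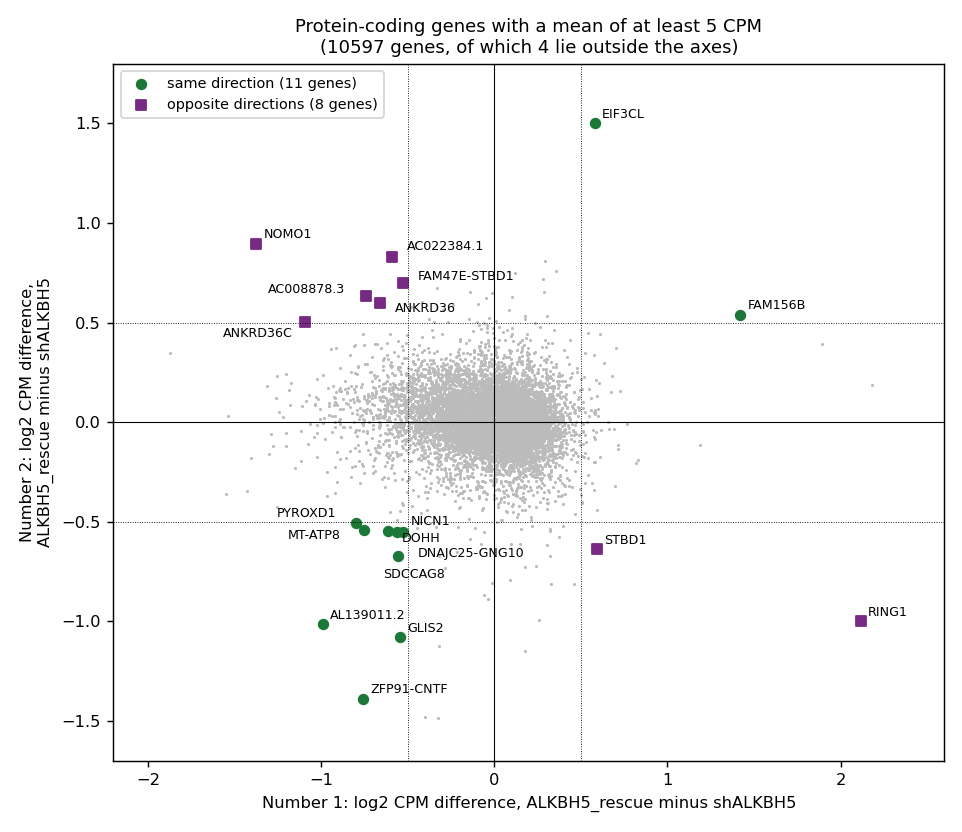
Each point is 1 of 10597 protein-coding genes whose mean over the 6 libraries was 5 CPM or more; the x axis is the A5-res minus shA5 difference in log2 CPM within number 1 and the y axis the same within number 2. The cloud is wider along number 1 than along number 2, few genes lie past 0.5 on both axes, and 4 genes fall outside the axes.

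The differences within number 1 were wider than within number 2 and did not recur gene by gene. Over genes averaging 5 CPM or more, the median size of the A5-res minus shA5 difference was 0.143 on the log2 scale within number 1 and 0.0757 within number 2. A difference of 0.5 or more was seen in 605 of 10597 protein-coding genes of that level (5.71%) within number 1 and in 82 (0.774%) within number 2. Pearson's r between the sets of differences was -0.11 across 10806 genes, which share their 4 libraries and are not independent replicates. Of these protein-coding genes 11 (0.104%) differed by at least 0.5 the same way in both numbers, 2 higher (0.0189%) and 9 lower (0.0849%) in A5-res. In opposite ways 8 did (0.0755%), 2 of them higher in number 1 (0.0189%) and 6 higher in number 2 (0.0566%). Over all 14497 genes 1802 (12.4%) had that size within number 1 and 1123 (7.75%) within number 2. Of these, 216 (1.49%) did so the same way, 90 higher (0.621%) and 126 lower (0.869%). In opposite ways 196 did (1.35%), 63 of them higher in number 1 (0.435%) and 133 higher in number 2 (0.917%). Restricting to 8114 genes of at least 5 CPM that share under 10% of their words left GLIS2 and DOHH on the agreeing side (0.0246%) and RING1 on the opposing side (0.0123%).

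Among the 11 agreeing protein-coding genes averaging 5 CPM or more, the smallest error relative to the change was that of MT-ATP8 (chrM:8366-8572), which encodes a small subunit of the mitochondrial ATP synthase and whose reading frame overlaps that of MT-ATP6. Its coding sequence from the GENCODE annotation on GRCh38 is shown because its short length and its overlap with MT-ATP6, in capitals, bear on how reads are assigned to it.
MT-ATP8: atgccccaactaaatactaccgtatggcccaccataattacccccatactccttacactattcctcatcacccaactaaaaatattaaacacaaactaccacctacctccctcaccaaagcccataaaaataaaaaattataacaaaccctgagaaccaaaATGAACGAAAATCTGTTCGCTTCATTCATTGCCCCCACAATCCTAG

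MT-ATP8 stood at 73.9 and 62.5 CPM in the shA5 libraries, 43.7 and 42.9 in the A5-res libraries and 43.3 and 55.7 in the shCtrl libraries. Both A5-res libraries lay below both shA5 libraries, and the shCtrl libraries also lay below them. Here and below, 2 against 2 libraries can separate by order alone, and the share of all genes that do so is not given. The log2 fold change was -0.65 (SE 0.15, 95% interval -0.98 to -0.33), with an edgeR adjusted p of 1. MT-ATP8 passed the threshold in edgeR without A5-res number 1 (-0.69) and without A5-res number 2 (-0.62). MT-ATP8 is 207 bases long and 46 of these lie in MT-ATP6. It shares 44.6% of its 31-base words with other genes, MTATP8P1 holding 30.5%, and MT-ATP6 shares 63.7%. The sum of MT-ATP8 and MTATP8P1 differed by -0.76 and -0.54 within numbers 1 and 2. MT-ATP6 itself, another ATP synthase subunit, stood at 1664 and 1861 CPM in shA5 and 1571 and 1487 in A5-res, with a log2 fold change of -0.20 (SE 0.15) whose sign turned without A5-res number 2. MT-ND4L, a small complex I subunit of 297 bases, stood at 1389 and 1313 CPM in shA5 and 1065 and 1029 in A5-res, a log2 fold change of -0.37 (SE 0.13) that did not pass. Of the longer mitochondrial genes, MT-CO1, the core subunit of cytochrome c oxidase, differed by 0.00 (SE 0.15), and MT-CYB of complex III by 0.11 (SE 0.13). Of the 13 mitochondrially encoded protein genes, 3 were lower in A5-res in both numbers (23.1%) and 2 higher in both (15.4%), against 21.5% and 23.1% of all genes. Higher in number 1 and lower in number 2 were 8 (61.5%), against 27.5% of all genes.

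GLIS2 and DOHH were lower in A5-res in both numbers and hold no words shared with other genes. GLIS2 (chr16:4314761-4339597), a zinc finger transcription factor, stood at 5.37 and 9.61 CPM in the shA5 libraries, 3.65 and 4.49 in the A5-res libraries and 6.15 and 7.34 in the shCtrl libraries. The groups A5-res and shA5 did not overlap, and the log2 fold change was -0.85 (SE 0.21), with an edgeR adjusted p of 1. GLIS2 passed only without A5-res number 1, at -0.98, and was -0.55 without shA5 number 2. DOHH (chr19:3490822-3500940), the hydroxylase that completes the hypusine residue of translation factor eIF5A, stood at 16.9 and 10.7 CPM in shA5, 11.0 and 7.26 in A5-res and 15.5 and 13.3 in shCtrl. Its groups overlapped across the numbers, and the log2 fold change was -0.59 (SE 0.17). SDCCAG8, a centrosome and cilium gene with 10.9% shared words, stood at 10.9 and 10.6 CPM in shA5 against 7.38 and 6.58 in A5-res, a log2 fold change of -0.63 (SE 0.18). PYROXD1, an oxidoreductase gene, stood at 15.5 and 15.5 CPM against 8.86 and 10.9, a log2 fold change of -0.66 (SE 0.17). PYROXD1 shares 42.6% of its words with other genes, RECQL being the gene that overlaps it most. SDCCAG8 and PYROXD1 each passed without A5-res number 2 (-0.68 and -0.85). Among the alternatives other than leaving out a single library, SDCCAG8 shrank to as little as -0.17 and PYROXD1 to -0.46.

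**Figure D2:**
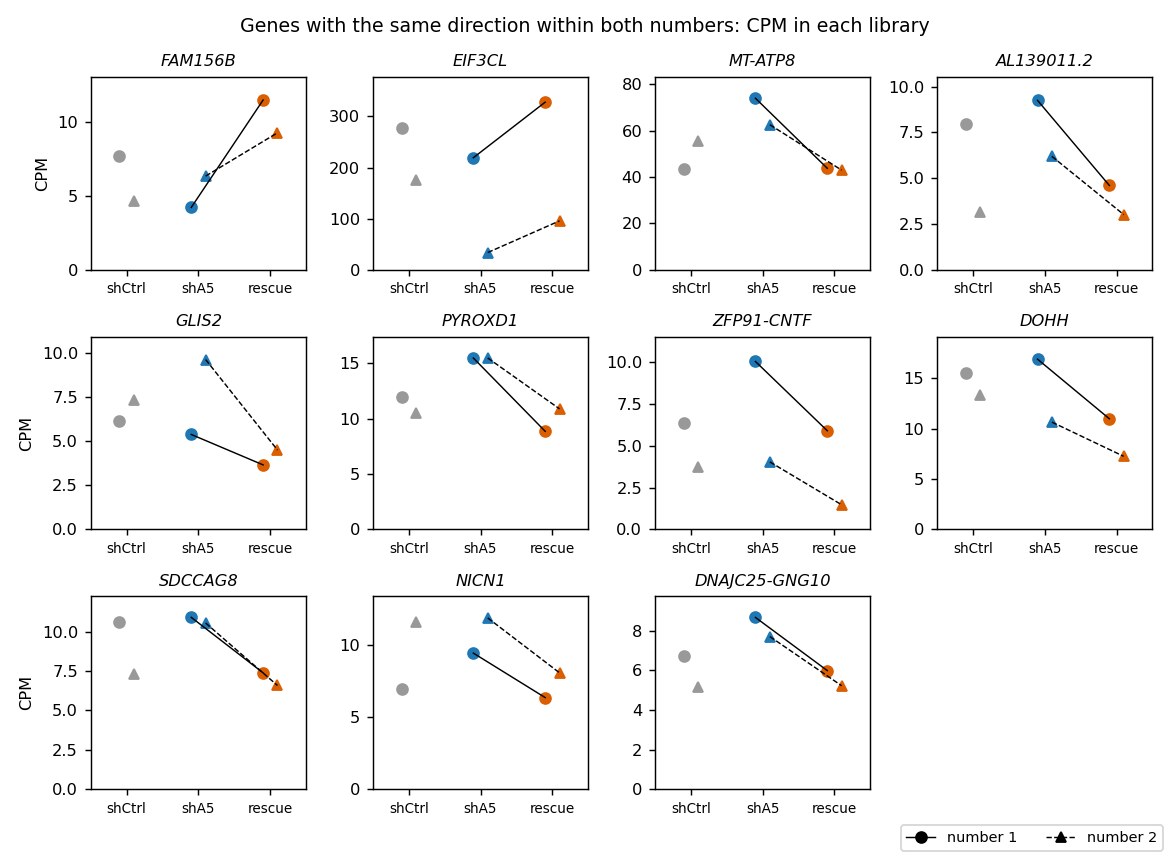
Levels in CPM, on a linear axis from 0, of the 11 protein-coding genes that differ by at least 0.5 (log2) the same way within both numbers, with 1 point per library (rescue marks A5-res) and lines joining shA5 to A5-res within a number. FAM156B and EIF3CL slope upward in both numbers and the other 9 slope downward.

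The other agreeing genes share most of their sequence with a neighbour or copy, and for most of them the difference was smaller in the sum. FAM156B and EIF3CL were the 2 genes higher in A5-res in both numbers. FAM156B stood at 4.23 and 6.35 CPM in shA5 and 11.5 and 9.29 in A5-res, a log2 fold change of 0.95 (SE 0.27). Its sequence is wholly shared with FAM156A, and the sum of both genes differed by 0.08 and 0.03 on the log2 scale within numbers 1 and 2. EIF3CL stood at 219 and 33.7 CPM in shA5 and 328 and 95.6 in A5-res, a log2 fold change of 0.94 (SE 0.34). It is a copy of EIF3C, which encodes a subunit of translation initiation factor eIF3, with 98.5% of its words shared, and their sum differed by 0.11 and 0.02. For the lower genes, AL139011.2 summed with DCAF8 differed by -0.10 and -0.06, and the read-through gene ZFP91-CNTF summed with ZFP91 by -0.16 and 0.07. DCAF8 stood at 171 to 258 CPM and ZFP91 at 134 to 172, far above both genes, so these sums mostly follow the partner. The read-through gene DNAJC25-GNG10 summed with GNG10 differed by -0.28 and -0.25, and NICN1, a tubulin polyglutamylase subunit gene, summed with AC104452.1 by -0.22 and -0.33. These last sums were therefore also lower in A5-res in both numbers, by less than 0.5. With a library left out, FAM156B passed edgeR without shA5 number 2 (1.54) and without A5-res number 2 (1.06), but was 0.44 without shA5 number 1. EIF3CL passed without shA5 number 1 (1.81), A5-res number 1 (0.82) and A5-res number 2 (0.98), but was 0.33 without shA5 number 2. AL139011.2 passed without A5-res number 2 (-1.17) and ZFP91-CNTF without A5-res number 1 (-1.60).

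Genes of a smaller size that agreed were CBFB, BMPR2 and LYSMD2 on the lower side and TTC1 and HENMT1 on the higher side, among others. Of the 8114 genes of at least 5 CPM with under 10% shared words, 68 (0.838%) differed by at least 0.25 the same way in both numbers, 21 higher (0.259%) and 47 lower (0.579%). The opposing genes numbered 135 (1.66%), 40 higher in number 1 (0.493%) and 95 higher in number 2 (1.17%). The genes named here were chosen after their values were seen. The 47 lower genes had a median GC content of 43.1% and the 21 higher genes 52.0%, against 49.2% over all of these genes. The part of GC content in these counts was not tested.

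CBFB (chr16:67029116-67101058), the partner of RUNX1 in core binding factor, stood at 117 and 128 CPM in the shA5 libraries, 89.0 and 103 in the A5-res libraries and 104 and 113 in the shCtrl libraries. Its groups did not overlap, and the log2 fold change was -0.36 (SE 0.10), which passed edgeR only without A5-res number 2, at -0.40. BMPR2, a receptor for bone morphogenetic proteins, stood at 24.7 and 29.97 CPM against 13.9 and 24.8, a log2 fold change of -0.54 (SE 0.16). LYSMD2, which encodes a protein with a LysM domain, stood at 4.80 and 16.7 CPM in shA5 against 3.82 and 7.63 in A5-res, a log2 fold change of -0.78 (SE 0.21). BMPR2 passed only without A5-res number 2 (-0.81) and was -0.30 without A5-res number 1. It was -0.39 after a trend on GC content and length was removed. Among the alternatives other than leaving out a single library it shrank to as little as -0.18. LYSMD2 passed only without A5-res number 1 (-1.06) and was -0.43 without shA5 number 2. On the higher side TTC1, a tetratricopeptide repeat gene, stood at 44.8 and 47.1 CPM in shA5 and 56.7 and 57.1 in A5-res, a log2 fold change of 0.31 (SE 0.12). HENMT1, a small-RNA methyltransferase, differed by 0.30 (SE 0.12), from 38.6 and 48.4 CPM to 47.0 and 60.1. The TTC1 groups did not overlap, while those of HENMT1 overlapped across the numbers.

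The numbers disagreed beyond the spread for 36 genes (0.248%), by edgeR's test of the difference between the number 2 and the number 1 comparison at an adjusted p under 0.05. In 20 (0.138%) the A5-res minus shA5 difference was more positive in number 2 and in 16 (0.110%) in number 1. This test has 1 residual degree of freedom, which comes from the shCtrl libraries, and its spread was taken wholly from the trend over all genes. At an unadjusted p under 0.05 edgeR found 612 genes (4.22%). DESeq2 called 0 genes (42 unadjusted), limma-voom called 24, and edgeR after removing a trend on GC content and length called 0 (424 unadjusted). Of the 36 genes, 25 share at least 50% of their words with other genes, or 2.50% of the 1000 tested genes of that kind, and 9 share under 10%, or 0.0853% of 10547. For 24 a single partner held at least 50% of the words, and in 22 of them the sum with that partner differed by under 0.5 within both numbers. Many partners stood far above the called gene, such as FNTA at 66.1 to 86.6 CPM beside AC110275.1 at 0 to 0.861. A sum with such a partner stays under 0.5 whatever the small gene does, and how reads were divided was not tested.

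Among genes with less shared sequence, OSBPL8 and SAMD9 were lower in A5-res within number 1 only. OSBPL8 (chr12:76351797-76559809), an oxysterol-binding-protein-related lipid transfer protein, stood at 78.2 CPM in shA5 and 34.3 in A5-res within number 1, 81.5 and 91.1 within number 2, and 56.3 and 39.2 in the shCtrl libraries. The difference between the numbers was 1.34 (SE 0.31, edgeR adjusted p 0.00728). SAMD9 (chr7:93099513-93118023), an interferon-inducible antiviral factor, stood at 21.1 and 8.77 CPM within number 1, 48.0 and 56.5 within number 2, and 15.4 and 20.8 in the shCtrl libraries. The difference was 1.47 (edgeR adjusted p 0.0161). DEPDC1 (chr1:68474152-68497221), a gene of dividing cells with 18.9% shared words, stood at 23.0 and 9.21 CPM within number 1 and 25.5 and 28.97 within number 2, a difference of 1.48 (edgeR adjusted p 0.0222). XRCC4, which joins DNA ends with ligase IV, stood at 5.71 and 1.69 CPM within number 1 and 7.03 and 8.49 within number 2, a difference of 1.92 (SE 0.50, edgeR adjusted p 0.0497). FANCB (chrX:14835961-14873069), a subunit of the Fanconi anaemia core complex, stood at 5.43 and 1.52 CPM within number 1 and 3.15 and 5.11 within number 2, a difference of 2.50 (SE 0.55, edgeR adjusted p 0.00367). The shCtrl libraries stood at 16.6 and 11.8 CPM in DEPDC1, 3.33 and 2.34 in XRCC4 and 3.11 and 3.09 in FANCB. In these 5 genes A5-res of number 1 was the lowest library of the series. A5-res of number 2 was the highest in OSBPL8, SAMD9, DEPDC1 and XRCC4. After removal of the trend on GC content and length the differences of the 5 genes were 1.08, 0.84, 0.92, 1.57 and 2.08 in the order described, none of them called.

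**Figure D3:**
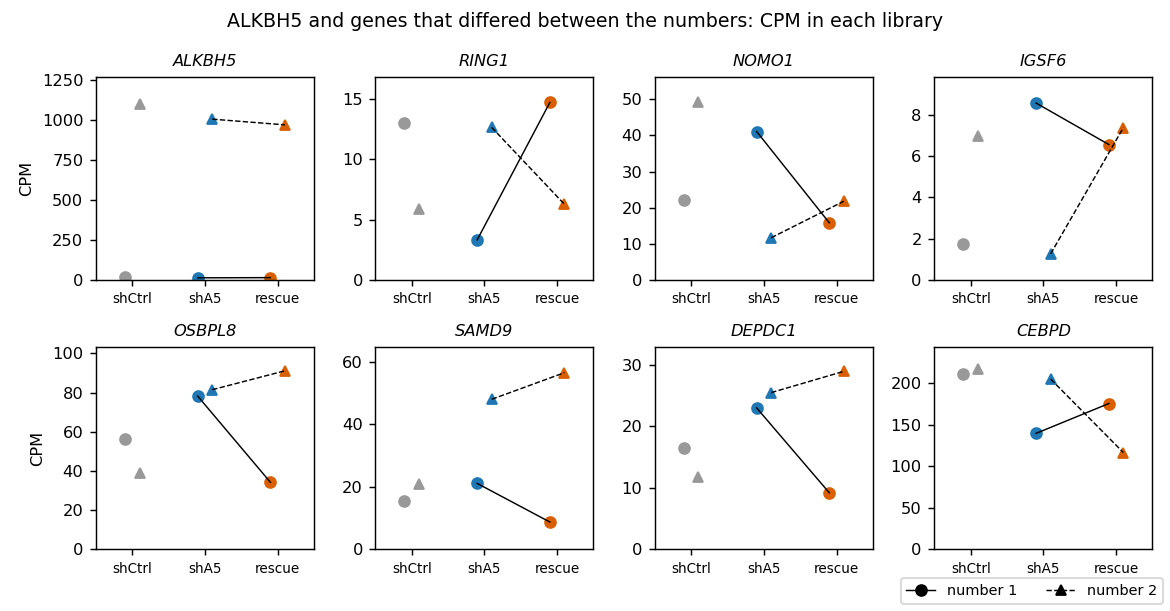
Levels in CPM, on a linear axis from 0, of ALKBH5 and of 7 genes whose A5-res minus shA5 difference differed between the numbers, with 1 point per library (rescue marks A5-res) and lines joining shA5 to A5-res within a number. ALKBH5 is high in every library of number 2 and low in every library of number 1, and in the other genes the lines of the numbers slope in opposite ways.

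CEBPD, IGSF6 and WNT3 disagreed through the libraries of number 2. CEBPD (chr8:47736909-47739086), a transcription factor of myeloid cells, stood at 140 CPM in shA5 and 175 in A5-res within number 1 but 205 and 116 within number 2, with 210 and 216 in the shCtrl libraries. The difference was -1.14 (SE 0.29, edgeR adjusted p 0.0324) and -0.87, no longer called, after removal of the GC and length trend. IGSF6 (chr16:21639537-21652660, minus strand), an immunoglobulin superfamily gene of myeloid cells, stood at 8.57 and 6.56 CPM within number 1 and 1.26 and 7.38 within number 2, a difference of 2.57 (SE 0.50, edgeR adjusted p 0.000256). Its shCtrl libraries stood at 1.74 and 6.97 CPM, and both shCtrl number 1 and shA5 number 2 held 24 counts. IGSF6 lies within METTL9 on the opposite strand, and whether the counting used strand was not stated. It shares 2.86% of its words with METTL9 and 12.1% with other genes in all. WNT3, a secreted signalling ligand, stood at 4.46 and 5.08 CPM within number 1 and 0.157 and 5.54 within number 2, and at 0.289 and 5.43 in the shCtrl libraries. WNT3 rested on 3 counts in shA5 number 2, and shCtrl number 1 was as low as that library.

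Genes with copies or overlapping neighbours made up most of the others that were called. RING1 (chr6:33208495-33212722), the E3 ligase of Polycomb repressive complex 1, stood at 3.31 and 14.7 CPM in shA5 and A5-res of number 1 and at 12.7 and 6.27 of number 2, a difference of -3.09 (SE 0.43, edgeR adjusted p 3.51e-09). RING1 holds no words shared with other genes. The tables hold 4 unmatched transcripts of the same length as its main transcript, and with these added the differences within the numbers were 0.35 and -0.17. These transcripts were picked by length alone, after the values were seen, and their sequences were not compared with RING1. NOMO1 (chr16:14833681-14896160), which encodes a membrane protein of the endoplasmic reticulum, stood at 41.1 and 15.8 CPM in number 1 and 11.7 and 21.8 in number 2, a difference of 2.28 (SE 0.36, edgeR adjusted p 6.85e-07). NOMO1 shares 88.9% of its words with other genes, and its sum with NOMO3 still differed by -1.02 and 0.61. That sum takes in only the gene sharing the most words, and any further copy was not added. For MRM1, a mitochondrial rRNA methyltransferase, shA5 number 2 was at 0 counts against 84, 65 and 56 in the others, and adding an unmatched transcript of the same length gave -0.41 and 0.02. MRM1 also holds no shared words, and that transcript was picked in the same way. SMN1, the survival motor neuron gene, stood at 12.9 and 3.43 CPM in number 1 and 2.15 and 2.77 in number 2, and its sum with the near-identical SMN2 differed by 0.07 and -0.07. The 6 genes that follow took opposite signs by at least 0.5 but were not called in the test of the difference. STBD1 and FAM47E-STBD1, which overlap, took opposite signs to each other in each number, and their sum differed by 0.09 and -0.16. The sum of the near-copies ANKRD36C and ANKRD36, both ankyrin repeat genes, kept its opposite signs at -0.83 and 0.56. ANKRD36 shares 58.8% of its words with other genes but 38.0% with ANKRD36C, and any further copy was not added. AC008878.3 summed with ARHGEF18 differed by 0.00 and 0.02, and AC022384.1 summed with TATDN2 by 0.16 and -0.03. ARHGEF18 stood at 70.5 to 94.3 CPM and TATDN2 at 98.0 to 142, far above both genes, so these sums mostly follow the partner.

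The difference between shA5 and A5-res moved with GC content and length, and it did so in opposite ways in the numbers. Genes averaging 5 CPM or more were put in 4 bins of equal size. In the bin with the lowest GC content the median A5-res minus shA5 difference was -0.21 in number 1 and 0.07 in number 2, and in the bin with the highest it was 0.10 and -0.02. In the bin with the shortest transcripts the medians were 0.15 and -0.02, and in the longest -0.14 and 0.02. Spearman's rho over 10806 genes was 0.484 and -0.286 for GC content and -0.527 and 0.127 for length, in numbers 1 and 2. The part of GC content and length in the differences of single genes was not tested beyond the fits with that trend removed. The 869 genes lower in A5-res without A5-res number 2 had a median GC content of 39.9% and a median length of 3787 bases, and the 136 higher genes 51.5% and 1141 bases.

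**Figure D4:**
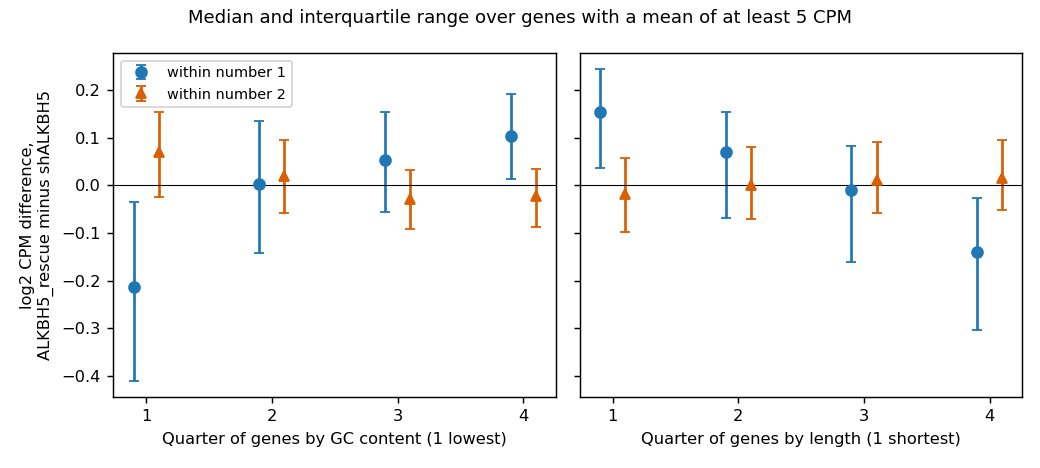
Median A5-res minus shA5 difference in log2 CPM in 4 bins of GC content and of transcript length, over genes averaging 5 CPM or more, for number 1 and number 2, with the interquartile range as bars. Number 1 runs from -0.21 to 0.10 with GC content and from 0.15 to -0.14 with length, and number 2 runs weakly the other way with GC content.

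Genes that act on m6A did not separate the labels as a set. Of 27 tested methyltransferase, demethylase and reader genes, 6 were higher in A5-res in both numbers and 6 lower in both (22.2% each, against 23.1% and 21.5% of all genes), 15 had opposite signs, and the median log2 fold change was 0.01 against 0.00 over all 14497 genes. None of them was called. Their log2 fold changes ran from -0.75 to 0.26, with RBM15 at -0.24, ALKBH3 at 0.26 and ALKBH6 at 0.22. With a library left out RBM15 ran from -0.41 to -0.08. METTL3 differed by -0.09 (SE 0.10), METTL14 by -0.05 (SE 0.14), FTO by -0.11 (SE 0.12) and the decay-promoting reader YTHDF2 by 0.12 (SE 0.10). The reader YTHDF3 stood at 96.0 and 87.8 CPM in shA5 and 68.5 and 81.2 in A5-res, a log2 fold change of -0.29 (SE 0.13) that passed edgeR only without A5-res number 2, at -0.53, and was -0.07 without A5-res number 1. Of 13 tested genes that this study or others tied to ALKBH5, 3 were higher in both numbers, 3 lower in both, and the median was 0.00. AXL, a receptor tyrosine kinase in that list, stood at 0.914 and 1.68 CPM in shA5 and 0.652 and 2.09 in A5-res, a log2 fold change of 0.00 (SE 0.34, 95% interval -0.77 to 0.76). TACC3, a spindle gene, differed by 0.06 (SE 0.10), MYC by 0.05 (SE 0.11) and MYB by -0.08 (SE 0.10). The 13 genes ran from -0.48 to 0.09, and 1 of them had an unadjusted p under 0.05 in edgeR. The lowest was USP1, which is described with the DNA repair genes.

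Ribosomal protein and respiratory chain genes shifted together but in opposite ways in the numbers. Of 79 cytosolic ribosomal protein genes, 61 were higher in A5-res in number 1 and lower in number 2, with medians of 0.23 and -0.07, and 16 were higher in both. Their share of all counts was 4.73% in shA5 and 5.41% in A5-res in number 1, and 4.19% and 4.06% in number 2. Of 75 nuclear-encoded respiratory chain and ATP synthase genes, 48 were higher in number 1 and lower in number 2, with the same medians, and 25 were higher in both. Over all genes 3989 of 14497 (27.5%) had that pattern, 23.1% were higher in both, and both medians were 0.00. With the GC and length trend removed the medians were 0.14 and -0.03 for the ribosomal genes and 0.13 and -0.04 for the respiratory genes. The median log2 fold change of 0.09 in each list turned to -0.10 and -0.08 without A5-res number 1 and became 0.26 and 0.24 without A5-res number 2. RPL7, a large-subunit ribosomal protein gene, stood at 405 and 827 CPM in shA5 and 648 and 971 in A5-res, a log2 fold change of 0.45 (SE 0.14) that passed edgeR only without A5-res number 2, at 0.53, and was 0.20 without shA5 number 1.

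**Figure D5:**
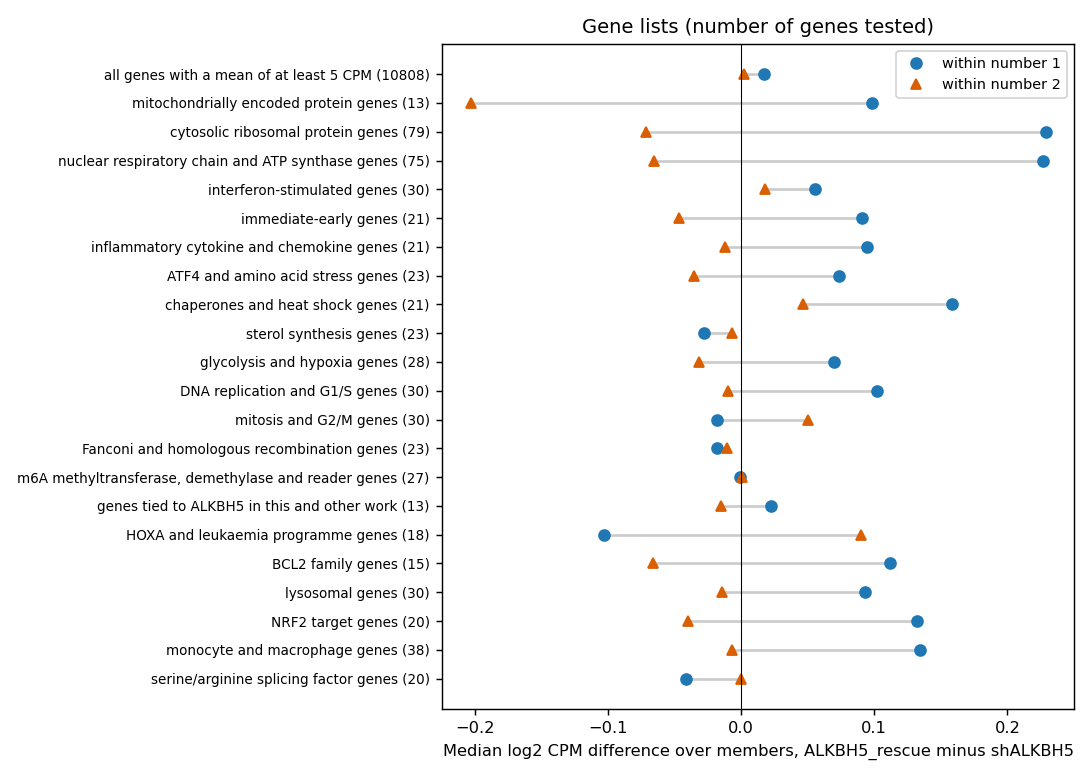
Median A5-res minus shA5 difference in log2 CPM of each gene list, within number 1 and within number 2. Ribosomal protein and respiratory chain genes lie at 0.23 in number 1 and at -0.07 in number 2, while the chaperone genes lie above 0 in both and HOXA genes lie at -0.10 and 0.09.

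Chaperone and heat shock genes were the list with the largest share of members higher in A5-res in both numbers among the lists in the plot of list medians. Of 21 tested members, 13 were higher in both (61.9%, against 23.1% of all genes), 1 was lower in both (4.76%, against 21.5%), and the medians were 0.16 and 0.05. None was called. DNAJA1, a co-chaperone of HSP70, stood at 305 and 304 CPM in shA5, 374 and 341 in A5-res and 364 and 318 in shCtrl, a log2 fold change of 0.23 (SE 0.10). HSPD1, the mitochondrial chaperonin, stood at 961 and 848 CPM in shA5 and 1104 and 965 in A5-res, a log2 fold change of 0.19 (SE 0.12). PDIA3, a disulfide isomerase of the endoplasmic reticulum, differed by 0.20 (SE 0.10), and DNAJB9, an endoplasmic reticulum co-chaperone, by -0.30 (SE 0.20). In DNAJA1 and HSPD1 both A5-res libraries exceeded both shA5 libraries, with intervals of the fold change of 0.01 to 0.45 and -0.08 to 0.46. For HSPD1 the closest libraries were at 965 CPM in A5-res and 961 in shA5.

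Cell cycle and DNA repair lists had small median log2 fold changes. These were 0.04 for DNA replication and G1/S genes, 0.04 for mitosis genes and -0.03 for Fanconi and homologous recombination genes. Over all genes 23.1% were higher in both numbers and 21.5% lower in both. Of 30 DNA replication and G1/S genes, 10 were higher in both numbers (33.3%) and 4 lower in both (13.3%), and 23 had a positive log2 fold change (76.7%, against 51.1% of all genes). Of 30 mitosis genes, 9 were higher in both (30%) and 3 lower in both (10.0%), and 18 had a positive log2 fold change (60%). Lower in number 1 and higher in number 2 were 13 mitosis genes (43.3%, against 27.7% of all genes). Of 23 Fanconi and homologous recombination genes, 6 were higher in both (26.1%) and 7 lower in both (30.4%), and 10 had a positive log2 fold change (43.5%). CENPE, a kinetochore motor, stood at 34.2 and 55.4 CPM in shA5 and 16.8 and 49.1 in A5-res, a log2 fold change of -0.57 (SE 0.20). CCNB2, a mitotic cyclin, stood at 43.0 and 71.0 CPM against 53.8 and 82.8, a log2 fold change of 0.27 (SE 0.11). USP1, the deubiquitinase of FANCD2, stood at 68.9 and 71.6 CPM in shA5, 40.5 and 61.8 in A5-res and 48.1 and 48.9 in shCtrl, a log2 fold change of -0.48 (SE 0.15). Both A5-res and both shCtrl libraries lay below the shA5 libraries in USP1. USP1 and CENPE passed edgeR only without A5-res number 2, at -0.78 and -1.05, and were -0.21 and -0.16 without A5-res number 1. With the GC and length trend removed, USP1 was -0.41 and CENPE -0.26. Of 30 interferon-stimulated genes, 12 were higher in both numbers (40%) and 6 lower in both (20%), with a median of 0.02. Of 18 HOXA and leukaemia programme genes, 6 were higher in both (33.3%) and 4 lower in both (22.2%), with a median of -0.03. Lower in number 1 and higher in number 2 were 8 of these (44.4%, against 27.7% of all genes), and 0 had the reverse pattern. The log2 fold change was positive in 6 of the 18 and ran from -0.39 to 0.83. HOXA4 differed by 0.83 and FLT3 by 0.49, and neither was called. CDK6, a cell cycle kinase of the leukaemia programme list, stood at 268 and 282 CPM in shA5 and 194 and 272 in A5-res, a log2 fold change of -0.26 (SE 0.12). It passed only without A5-res number 2, at -0.46, and was -0.07 without A5-res number 1. With the GC and length trend removed CDK6 was -0.12.

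No transcript passed the paired test in edgeR (0 of 58909, 0%). At an unadjusted p under 0.05 there were 1563 (2.65%), and 951 (1.61%) without the block. DESeq2 with the block called 82, and limma-voom called 0 (2521 unadjusted). A difference of at least 1 on the log2 scale was seen in 11761 transcripts (20%) within number 1 and 11348 (19.3%) within number 2. It went the same way in both numbers in 2257 (3.83%), higher in 1081 (1.84%) and lower in 1176 (2.0%). It went in opposite ways in 2277 (3.87%), with 1098 (1.86%) higher and 1179 (2.0%) lower in number 1. Among 20409 transcripts averaging 5 CPM or more, 1312 (6.43%) and 925 (4.53%) had that size within numbers 1 and 2. Of these, 65 (0.318%) were higher in A5-res in both numbers and 75 (0.367%) lower, 140 in all (0.686%), and 65 (0.318%) and 63 (0.309%) took the opposing patterns, 128 in all (0.627%). Gene totals differed by under 0.5 in both numbers in 60 of the 65 higher and 69 of the 75 lower transcripts. Such totals are usual, since of protein-coding genes of at least 5 CPM 5.71% reached 0.5 within number 1 and 0.774% within number 2. The counts of such transcripts rest on how reads are divided among overlapping isoforms.

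PARP8-219 and SMARCA2-208 had the smallest p among transcripts of at least 5 CPM that were higher in A5-res by at least 1 in both numbers. PARP8-219, of a mono-ADP-ribosyltransferase gene, had 48 and 129 counts in shA5, 207 and 310 in A5-res and 196 and 550 in shCtrl, a log2 fold change of 1.61 (SE 0.18). SMARCA2-208, of an ATPase of the SWI/SNF chromatin remodeller, had 8 and 26 counts in shA5, 971 and 391 in A5-res and 385 and 563 in shCtrl. The SMARCA2 gene stood at 175 and 236 CPM in shA5 and 170 and 236 in A5-res. RAD54L-202, of a homologous recombination helicase gene, had 0 counts in both shA5 libraries and 283 and 144 in A5-res, at least 132-fold higher by a floor of 3 counts over the group, with 75 and 246 in shCtrl. In these 3 transcripts both shCtrl libraries lay above both shA5 libraries. Each passed in DESeq2 with the block and not in edgeR.

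TGOLN2-204 and METTL9-201 were among those lower in A5-res. TGOLN2-204, of a trans-Golgi membrane protein gene, stood at 24.7 and 22.0 CPM in shA5, 7.26 and 8.59 in A5-res and 9.02 and 9.56 in shCtrl, a log2 fold change of -1.56 (SE 0.19). The TGOLN2 gene stood at 414 and 465 CPM in shA5 and 390 and 474 in A5-res. METTL9-201, of a histidine methyltransferase gene, stood at 6.05 and 9.82 CPM in shA5, 0.994 and 0.573 in A5-res and 9.51 and 10.3 in shCtrl. Here the shCtrl libraries lay with shA5 and not with A5-res.

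Transcripts present with a single label and near 0 with the other were as frequent in both directions. With at most 3 counts in both libraries of a group and at least 30 in both of the other, 54 (0.0917%) were seen only in A5-res and 54 (0.0917%) only in shA5. The crossed patterns held 62 (0.105%) and 36 (0.0611%). The gene total differed by under 0.5 in both numbers for 51 and 48 of the 54. Such totals are usual, since of all 14497 genes 12.4% reached 0.5 within number 1 and 7.75% within number 2. Of the transcripts seen only in A5-res, 13 were also at most 3 counts in both shCtrl libraries and 7 had at least 30 in both; of those seen only in shA5 these were 11 and 12. RNF40-202, of an E3 ligase of histone H2B, had 0 and 0 counts in shA5, 320 and 214 in A5-res and 0 and 1 in shCtrl, at least 166-fold higher. ZEB2-210, of a zinc finger repressor gene, had 213 and 82 counts in shA5, 0 in both A5-res libraries and 130 and 224 in shCtrl, at least 106-fold lower.

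The transcripts with opposite signs included isoforms of leukaemia-related transcription factors whose gene totals differed by under 0.5 in both numbers. TCF3-220, of an E-protein gene, stood at 5.66 CPM in shA5 and 36.5 in A5-res within number 1 and at 56.8 and 4.65 within number 2, while the TCF3 gene stood at 215, 230, 202 and 203 CPM. MYC-207 had 0 and 584 counts in shA5 and A5-res of number 1, 108 and 0 in those of number 2, and 380 and 0 in the shCtrl libraries. The MYC gene stood at 181 and 206 CPM in number 1 and 128 and 121 in number 2. edgeR's test of the difference between the numbers called 0 transcripts (0%). At an unadjusted p under 0.05 there were 2305 (3.91%). DESeq2 called 66, TCF3-220 among them.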

How the data were processed

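The deposited tables give, for each of 179973 Ensembl transcripts, the authors' estimated counts, TPM values and lengths. Per the submitters' processing notes CASAVA, kallisto 0.43.1 and hg38 were used; quantification options, and whether strand was used, are not given in these sources. Estimated counts deposited by the authors were rounded after summing over the transcripts of a gene in GENCODE release 29, which matched 163714 transcripts (91.0%). The 16259 unmatched transcripts (3.13% to 3.32% of counts) were left out of tests. The deposited TPM values entered only an alternative that scales counts to transcript length.

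edgeR 4.0.16 (R 4.3.3; TMM, filterByExpr, quasi-likelihood test, Benjamini-Hochberg adjustment over all genes or transcripts, threshold 0.05) was fitted to all 6 libraries with group and replicate number, leaving 2 residual degrees of freedom. The difference between numbers added their interaction with the A5-res label (1 residual degree of freedom). The block is in the fit because the comparison is defined within numbers. As a check of the pairing, deviations of same-numbered libraries from group means correlated at 0.592 to 0.723 over genes. A standard error is the fold change over the square root of F. Within-number differences are of log2 CPM with a prior count of 2. Words are all 31-base stretches of a gene's transcripts. GC and length trends were removed by a spline per library. The code was tested on simulated data. Alternatives used DESeq2 1.42.0, limma 3.58.1 (voom), other filters and scalings, and each library left out.

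Named genes are those called and, for protein-coding genes of at least 5 CPM, those of at least 0.5 (log2) in both numbers, the smallest p first; for transcripts the size is 1; and up to 4 members per list. TCF3, MYC and other gene totals are given beside their transcripts, and METTL3, METTL14, FTO, YTHDF2, MT-CO1, AXL, TACC3, MYC and the genes of the smaller size were chosen after their values were seen. Members and lists were chosen with earlier results of these data known.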

Additional observations from a re-analysis of the deposited data

Results flagged for a closer look

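In 36 genes the A5-res minus shA5 difference of number 2 departed from that of number 1 by edgeR's interaction test at an adjusted p under 0.05. Values below are the number 2 difference minus the number 1 difference on the log2 scale. A value for a gene with a library at 0 counts is a fitted one and no bound on the change. Genes described in the report had 2.28 in NOMO1, 1.34 in OSBPL8, 1.47 in SAMD9, 1.48 in DEPDC1, 1.92 in XRCC4, 2.50 in FANCB, 2.57 in IGSF6, 2.89 in WNT3, 2.31 in SMN1, 4.48 in MRM1, -3.09 in RING1, -1.14 in CEBPD and -4.04 in AC048338.1. PTP4A1, a phosphatase gene that shares 69.6% of its words, had 1.44, and its sum with AL135905.2 differed by -0.26 and 0.09 within numbers 1 and 2. Histone gene HIST2H2AA3 had 3.73, and its sum with the identical HIST2H2AA4 differed by 0.13 and 0.10. The histone gene HIST2H4B had -2.74 and ADAM32, a metalloprotease-family gene, had -5.20.

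Read-through genes, which join neighbouring genes in a single transcript, had 4.91 in C1QTNF3-AMACR, 4.15 in RAB4B-EGLN2, 2.36 in LY75-CD302, 3.14 in STX16-NPEPL1 and -4.34 in SEPT5-GP1BB. Genes with clone-based names, and the pseudogene SRP9P1 (-3.39), made up the rest. Those with a more positive difference in number 2 were AC010323.1 (15.15), AC120057.2 (26.25), AL513165.2 (5.04) and AC110275.1 (21.60). Those with a more positive difference in number 1 were AC068631.2 (-3.69), AC002310.5 (-10.08), AC025283.2 (-7.07), AL035078.4 (-5.86), AC211476.3 (-8.98), AD000671.1 (-3.75), AP002373.1 (-5.57), AL139300.1 (-2.12) and AC005943.1 (-4.05). None of the 36 was called by DESeq2 or after the GC and length trend was removed.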

How the results depend on the processing

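The fit without the replicate block called 0 genes and 0 transcripts in the A5-res against shA5 comparison, as the fit with it did, and gave -0.051 for ALKBH5 and -0.041 for ALKBH5-201, reversed in sign. Fits with GC and length trends removed, or restricted to genes with little shared sequence, were chosen after seeing the data. Genes called were 3 with no low-count filter (DCANP1, AC011462.1 and AC048338.1) and 0 to 1005 with a library left out (0 without either shCtrl library, 17 without shA5 number 1, 38 without shA5 number 2, 54 without A5-res number 1, 1005 without A5-res number 2). Transcripts called were 82 in DESeq2 and 0 to 0 with a library left out. Genes that differed between the numbers were 36, but 0 in DESeq2, 0 with the trend removed and 6 among genes with under 10% shared words; such transcripts were 66 in DESeq2. This test leaves no residual degree of freedom once a library is left out.

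Genes of at least 0.5 in both numbers (higher in both, lower in both, higher then lower, lower then higher) were 90, 126, 63 and 133. With no filter they were 396, 614, 386 and 615, with at least 1 CPM in 2 libraries 45, 64, 39 and 71, and with a prior count of 5 the first pair was 58 and 83. Transcripts of at least 1, in that order, were 1081, 1176, 1098 and 1179. They became 2193, 2299, 2152 and 2450 with no filter and 688, 734, 691 and 722 with the 1 CPM filter. ALKBH5 turned to -5.0e-05 in limma-voom, and ALKBH5-201 to -0.033 there and to -0.0044 with total counts. With a library left out, ALKBH5 ran from -0.040 to 0.11, ALKBH5-201 from -0.045 to 0.11, ALKBH5-202 from -0.77 to 1.33, FOXM1 from -0.024 to 0.19, MT-ATP6 from -0.43 to 0.012 and MT-CYB from -0.066 to 0.26. Leaving out A5-res number 2 brought 20 named genes past the threshold and A5-res number 1 brought 5. Depth limits genes of a few CPM, such as WNT3, and isoforms with few counts.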
